A study of Homo sapiens with 10 samples.

Results

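Peaks of methylated DNA on the short arms of the 5 acrocentric chromosomes are described here. They were chosen by position alone: a peak belongs when its midpoint lies on GRCh38 chromosome 13 below 18.1 Mb, 14 below 18.2 Mb, 15 below 20 Mb, 21 below 13 Mb or 22 below 15.5 Mb. Of 284960 peaks on chromosomes 1 to 22 and X in 5 peak lists, 5421 met this rule. The EV list held 1145 of them and the WT list 1139, followed by K rep KO with 1086, K-KD with 1045 and K non-rep KO with 1006.

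The lists come from methylated DNA immunoprecipitation sequencing (MeDIP-seq) of HEK293T, a human embryonic kidney cell line with an altered karyotype. In this assay an antibody against 5-methylcytosine captures fragments of sheared genomic DNA, and stretches where captured fragments pile up are called as peaks. There were 10 libraries: each of 5 conditions had 1 captured library and 1 input library made with no antibody. The study asked about DNA methylation after perturbation of KCNQ1OT1, a long non-coding RNA of an imprinted domain on chromosome 11. The groups were EV cells, cells with the knockdown that the series' design text calls KCNQ1OT1_K KD (K-KD below), WT cells, and cells of the knockouts labelled K rep KO and, separately, K non-rep KO. All were grown in the same medium, and no further agent or allele is named for any group. The sources used here do not say what EV, K, rep and non-rep stand for, or whether a knockout line was 1 clone. With 1 list per condition no value below has a replicate, so no test across samples was possible and differences between lists cannot be told apart from differences between cultures or libraries.

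Acrocentric chromosomes have their centromere near one end, and their short arms carry few ordinary genes. The arms hold tandem arrays of the ribosomal RNA genes, around which the nucleolus forms, and long stretches of satellite repeats that are packed as heterochromatin. A ribosomal unit consists of a 45S precursor, cut into 18S, 5.8S and 28S ribosomal RNA, followed by a long intergenic spacer, and cells keep a share of their units silent with methylated DNA. In GRCh38 the short arms are largely gaps, a small amount of arm sequence is assembled on chromosomes 21 and 22, and most of the rest of these intervals is modelled centromere sequence.

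That makeup was visible in the gene annotation (RefSeq genes, GRCh38.p14). The intervals held 170 annotated genes, of which chromosome 13 had 0, chromosome 14 had 7, chromosome 15 had 4, chromosome 21 had 119 and chromosome 22 had 40. There were 19 protein-coding genes, 78 pseudogenes, 42 long non-coding RNA genes, 12 ribosomal RNA genes and 9 microRNA genes. The largest stretch without a gene on each chromosome, 11.7 Mb in all 5 together, held 977 of the 1145 EV peaks (85.3%), 920 of K-KD (88.0%), 1064 of WT (93.4%), 887 of K non-rep KO (88.2%) and 958 of K rep KO (88.2%). The label short arm therefore covers 2 kinds of sequence, which were kept apart. The arm zone is chromosome 21 below 11 Mb and chromosome 22 below 13 Mb, with 154 of the genes. The centromere zone is the rest of the intervals. It is set by coordinates alone, and its name was not checked against an annotation of centromere sequence.

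Promoters are the short arm sequences for which a reference sequence was at hand: 300 bases, from 250 before to 50 after the annotated start (RefSeq, GRCh38.p14). Shown are the promoter with a peak in all 5 lists (LINC01667) and the one with a peak in 4 (LOC105379418). Also shown are one with a peak in K-KD and, at its edge only, in EV (LOC105372733), and the CG-rich promoter of TPTE, which had none. They are written 5′ to 3′ on the gene's strand, and capitals mark CG, the dinucleotide in which human DNA is chiefly methylated. The coordinates are chr21:9821012-9821311 (minus strand) for LINC01667, chr22:10741842-10742141 (plus strand) for LOC105379418, chr21:10119441-10119740 (minus strand) for LOC105372733 and chr21:10521333-10521632 (plus strand) for TPTE.
LINC01667: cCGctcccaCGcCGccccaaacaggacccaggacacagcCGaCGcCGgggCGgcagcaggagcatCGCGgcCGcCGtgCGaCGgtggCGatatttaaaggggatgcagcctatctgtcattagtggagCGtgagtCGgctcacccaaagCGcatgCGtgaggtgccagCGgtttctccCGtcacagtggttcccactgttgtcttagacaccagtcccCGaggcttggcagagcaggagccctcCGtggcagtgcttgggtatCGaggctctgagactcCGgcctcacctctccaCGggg
LOC105379418: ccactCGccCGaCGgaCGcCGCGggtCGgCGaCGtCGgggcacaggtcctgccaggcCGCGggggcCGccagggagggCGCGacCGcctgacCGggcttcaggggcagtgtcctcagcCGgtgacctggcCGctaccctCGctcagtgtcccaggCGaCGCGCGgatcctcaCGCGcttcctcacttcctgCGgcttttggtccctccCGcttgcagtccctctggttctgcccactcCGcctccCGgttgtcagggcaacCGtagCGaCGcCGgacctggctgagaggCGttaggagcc
LOC105372733: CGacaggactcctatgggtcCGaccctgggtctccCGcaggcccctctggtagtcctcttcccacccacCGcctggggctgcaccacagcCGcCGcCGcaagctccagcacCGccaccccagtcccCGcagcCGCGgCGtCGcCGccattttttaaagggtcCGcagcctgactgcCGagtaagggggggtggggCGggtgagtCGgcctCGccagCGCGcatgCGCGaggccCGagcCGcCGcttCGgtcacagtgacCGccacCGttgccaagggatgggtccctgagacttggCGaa
TPTE: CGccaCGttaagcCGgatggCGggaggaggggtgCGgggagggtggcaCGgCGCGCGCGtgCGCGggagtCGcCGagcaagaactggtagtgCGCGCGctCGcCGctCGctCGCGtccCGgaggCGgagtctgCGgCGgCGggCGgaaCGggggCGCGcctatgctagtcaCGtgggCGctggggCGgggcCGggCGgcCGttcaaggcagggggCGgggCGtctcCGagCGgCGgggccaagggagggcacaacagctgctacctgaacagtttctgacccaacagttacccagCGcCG
These hold 25, 35, 30 and 44 CG in the order listed. The motif CG reads the same on both strands; 96.1% of the 34961 RefSeq promoters of this length hold at least 1, and the median is 14 both over all promoters and over the 48 in the intervals.

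The number of short arm peaks was nearly the same in every list while the length of the lists was not. The whole lists ran from 30732 peaks for WT to 87815 for EV, with 53919 for K-KD, 53396 for K non-rep KO and 59098 for K rep KO. The short arm share was 1.30% of EV peaks (95% Wilson interval 1.23 to 1.38), 1.94% of K-KD (1.83 to 2.06), 3.71% of WT (3.50 to 3.92), 1.88% of K non-rep KO (1.77 to 2.00) and 1.84% of K rep KO (1.73 to 1.95). The short arms thus made up the largest share in the shortest list and the smallest share in the longest. The peaks covered 1.49 Mb for EV, 1.30 for K-KD, 1.47 for WT, 1.25 for K non-rep KO and 1.46 for K rep KO. Depth of the captured libraries, worked out from the caller's background, was 0.947 (K-KD), 0.887 (WT), 0.751 (K non-rep KO) and 0.90 (K rep KO) relative to EV, so the list with the fewest short arm peaks was also the shallowest; the part of depth in this order was not tested. All intervals here cover counting error only and are too narrow, because neighbouring peaks are not independent.

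Chromosomes 13 and 14 gave like numbers. The chromosome 13 interval held 226 peaks for EV, 214 for K-KD, 233 for WT, 204 for K non-rep KO and 222 for K rep KO. Chromosome 14 held 223, 217, 239, 205 and 219 in the same order. Chromosome 21 had the most, with 360 for EV, 316 for K-KD, 290 for WT, 305 for K non-rep KO and 333 for K rep KO. Those were 22.3% of all chromosome 21 peaks in EV and 51.7% in WT. Chromosome 22 held 265, 225, 252, 227 and 241. Chromosome 15 stood apart for WT, which had 125 peaks over 139 kb, against 71 peaks for EV, 73 for K-KD, 65 for K non-rep KO and 71 for K rep KO over 61.8 to 70.0 kb. The plain ratio of peak numbers there was 0.568 for EV against WT (95% interval 0.418 to 0.766), the same for K rep KO against WT, and 0.52 for K non-rep KO against WT (0.379 to 0.707).

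**Figure D1:**
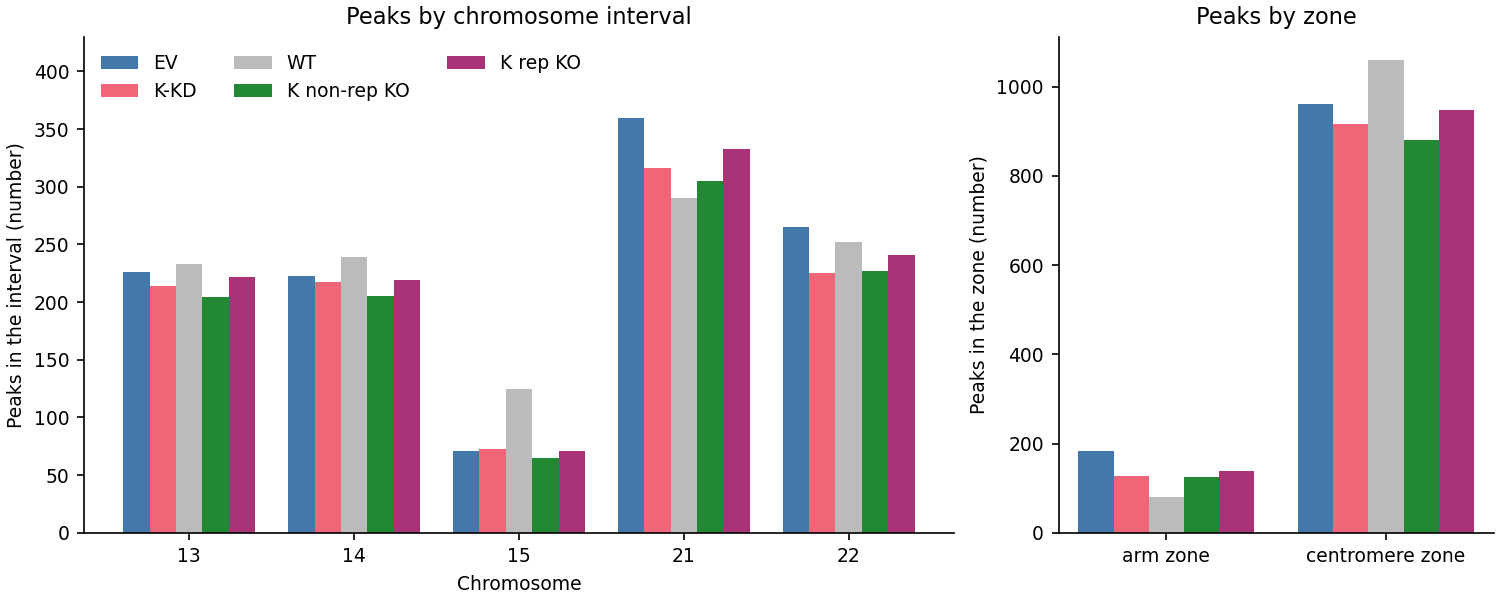
Number of peaks in each short arm interval by chromosome (left) and in each zone (right); bars are the 5 peak lists, with 1 list per condition and no error bars. The 5 bars of a chromosome are of similar height except on chromosome 15, where WT reaches 125 and the others 65 to 73, and in the arm zone EV has 183 and WT 80.

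The zones moved differently. In the centromere zone EV had 962 peaks, K-KD 917, WT 1059, K non-rep KO 880, with K rep KO at 947. WT, the shortest list, was highest here. In the arm zone EV had 183, K-KD 128, WT 80, K non-rep KO 126, with K rep KO at 139, so EV was highest and WT lowest, as for the lists as a whole.

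The knockdown was compared with EV. Short arm peaks were 0.913 times as many in K-KD (1045 against 1145, 95% interval 0.838 to 0.993), while the whole list was 0.614 times as long. Divided by that list ratio, the relative ratio was 1.49 (1.37 to 1.62), so short arm peaks were a larger part of the K-KD list. The centromere zone was at 1.55 (1.42 to 1.70), and the arm zone, at 1.14 (0.902 to 1.44), had an interval that included 1. Split after the data were seen, the arm zone was not uniform. Chromosome 21 from 8 to 9 Mb, which holds the ribosomal units described below, was at 1.87 (1.24 to 2.81). The rest of the arm zone was at 0.881 (0.653 to 1.18). The long arms of the same 5 chromosomes were at 0.973 (0.942 to 1.00).

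Each knockout was compared with WT. Short arm peaks were 0.953 times as many in K rep KO (0.877 to 1.04) and 0.883 times as many in K non-rep KO (0.811 to 0.962), against list ratios of 1.92 and 1.74. The relative ratios were 0.496 (0.456 to 0.539) and 0.508 (0.467 to 0.554), both under 1. In the centromere zone they were 0.465 (0.426 to 0.508) and 0.478 (0.437 to 0.523). In the arm zone they were 0.904 (0.681 to 1.20) and 0.906 (0.680 to 1.22), and both intervals included 1. On chromosome 21 from 8 to 9 Mb they were 0.671 (0.430 to 1.05) and 0.682 (0.433 to 1.08), with intervals that also included 1. The long arms of the same chromosomes lay on the other side of 1, at 1.22 (1.17 to 1.28) and 1.20 (1.15 to 1.25). Both comparisons share the WT list. With EV in place of WT as the control, which was chosen after the data were seen, the relative ratios were 1.41 and 1.44, so their direction depends on which unperturbed list is used.

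The knockouts were also compared with each other, and EV with WT. K rep KO had 1.08 times as many short arm peaks as K non-rep KO (0.99 to 1.18), and the relative ratio was 0.975 (0.894 to 1.06), an interval that included 1. EV had 1.01 times the short arm peaks of WT with a list 2.86 times as long, a relative ratio of 0.352 (0.324 to 0.382). Of the 5 relative ratios, this one, between lists both taken here as unperturbed, lay farthest from 1. For EV against WT, chromosome 21 from 8 to 9 Mb was at 0.442 (0.283 to 0.695). The rest of the arm zone was at 1.12 (0.790 to 1.63).

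**Figure D2:**
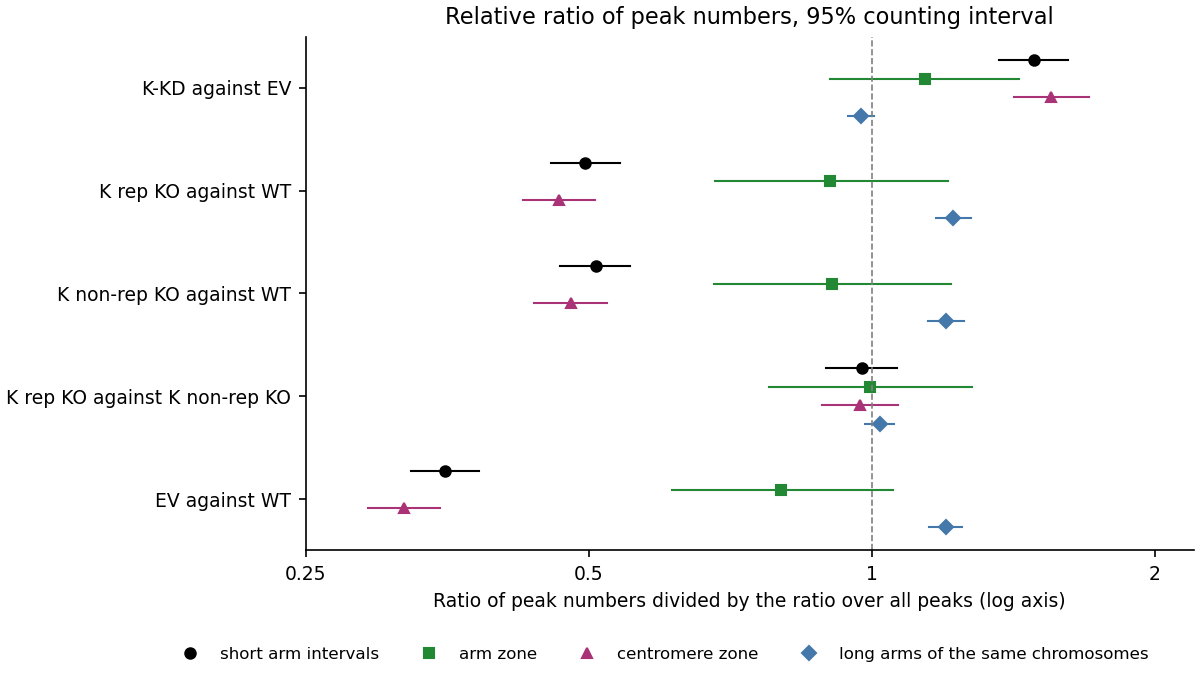
Ratio of peak numbers divided by the ratio over all peaks (log axis) for 5 comparisons, with 95% counting intervals; 1, the dashed line, means that a zone changed as the whole list did. The centromere zone (triangles) lies at 1.55 for K-KD against EV and between 0.318 and 0.478 for the 3 comparisons with WT, while every arm zone interval (squares) includes 1.

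Along the chromosomes, windows of 1 Mb were called where the relative ratio was past 2 in either direction, among windows with at least 10 peaks in both lists together. For K-KD against EV, 1 of 18 short arm windows was called higher, where 1.13% of all windows were, and 1 lower, where 5.43% were. The higher one was chromosome 15 from 18 to 19 Mb, with 41 peaks in K-KD and 33 in EV, and the lower one was chromosome 21 from 6 to 7 Mb, with 10 and 36. No window was called lower with peaks of −log10 q of 5 or more, with a fold of 4 or more, or with lists of equal length. At these settings 4, 3 and 2 windows were called higher. For K rep KO against WT, 8 of 18 were lower (5.98% of all windows) and 1 higher (11.7%). For K non-rep KO against WT, 6 of 17 were lower (4.62%) and 1 higher (10.6%). For EV against WT, 12 of 17 were lower (7.45%) and 2 higher (17.1%). For K rep KO set against K non-rep KO, 0 of 17 were called in either direction (3.23% lower, 1.9% higher). All the windows called lower against WT in the knockouts lay in the centromere zone. In EV against WT they also included chromosome 21 from 8 to 9 Mb and from 9 to 10 Mb, in the arm zone. The counts depend on the peaks kept. With peaks of −log10 q of 5 or more, 2 windows were called in K rep KO against WT and 4 in K non-rep KO against WT. With EV as the control 0 were called in either. The share over all windows is not given for these alternatives, so their counts cannot be set against it.

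The windows called higher against WT lay in the arm zone, in a part of chromosome 21 where GRCh38 places copies of long arm genes. From 5 to 6 Mb there were 23 peaks for EV, 13 for K-KD, 2 for WT, 11 for K non-rep KO and 13 for K rep KO. From 6 to 7 Mb there were 36, 10, 4, 11 and 12. WT was lowest and EV highest in both windows. No short arm window was called higher against WT, in either knockout or in EV, with −log10 q of 5 or more or with lists of equal length, nor in the knockouts among windows with at least 20 peaks. Among windows with at least 20 peaks, EV against WT kept 2 higher. With a fold of 4 or more, 1 was called higher in K rep KO, 0 in K non-rep KO and 2 in EV. The share over all windows is not given at these settings. At the other extreme, chromosome 15 from 18 to 19 Mb held 65 peaks in WT and 33 to 41 in the other lists, and from 19 to 20 Mb 56 against 26 to 34.

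Short arm peaks were broader than other peaks and less enriched over their surroundings. Their median width was 1078 bp for EV, 1001 for K-KD, 1124 for WT, 1016.5 for K non-rep KO and 1177 for K rep KO, against 519, 501, 736, 502 and 509 bp for all other peaks. Breadth belonged to the centromere zone, whose medians were 1081 to 1325 bp, while the arm zone medians were 513 to 783 bp. The median deposited fold enrichment at the summit, the authors' own value per peak, was 3.68, 3.53, 3.41, 3.68 and 3.87, against 4.30, 4.21, 4.09, 4.45 and 4.40 elsewhere. The caller's background at the summit was 2.14 times the genome-wide background in the median EV short arm peak, 2.90 for K-KD, 3.65 for WT, 2.77 for K non-rep KO and 2.69 for K rep KO, and 1.27 to 1.73 elsewhere. In the arm zone WT stood apart at 16.4, where 37 of its 80 peaks lay in the ribosomal block described below (44 of 183 for EV). Background was thus higher on the short arms in every list, and how far it sets the fold there was not tested.

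**Figure D3:**
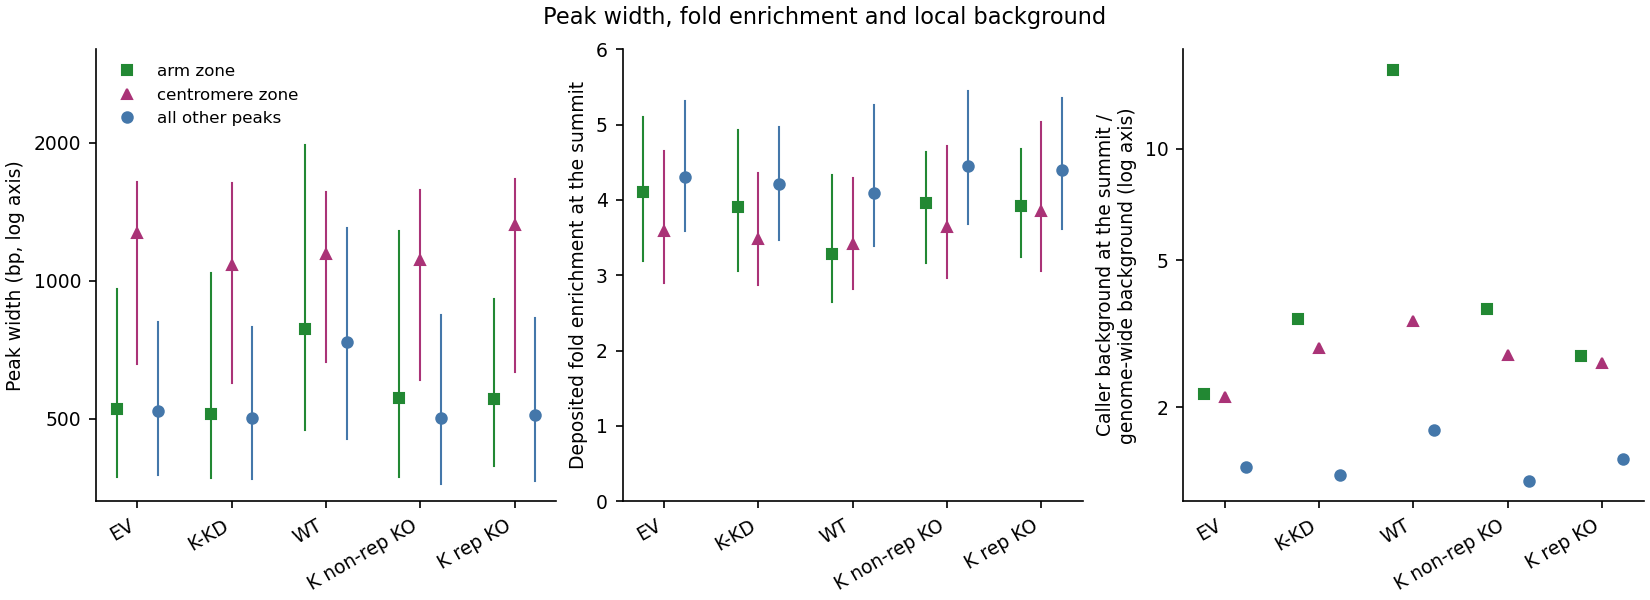
Median peak width (log axis), median deposited fold enrichment and median caller background relative to the genome-wide background (log axis) in each list, for the arm zone, the centromere zone and all other peaks; lines span the middle 50% of peaks, and the background panel shows medians alone. Centromere zone peaks are the broadest in every list, and their fold medians lie below those of all other peaks.

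Short arm peaks recurred between lists. Of the EV short arm peaks 61.4% were overlapped by a K-KD peak by at least 1 bp (35.2% of all EV peaks were), and 69.3% of K-KD short arm peaks by an EV peak (58.3% of all). Of WT short arm peaks 63.0% were overlapped by K rep KO (63.2% of all), 57.4% by K non-rep KO (59.9%) and 63.5% by EV (68.6%), all near or under the share over all peaks. In the other direction 63.5% of K rep KO (33.3% of all), 64.6% of K non-rep KO (35.4%) and 61.0% of EV short arm peaks (24.4%) were overlapped by WT. Between the knockouts 66.1% of K non-rep KO short arm peaks met a K rep KO peak (48.8% of all), and 59.5% of K rep KO met K non-rep KO (43.7%). Sharing on the short arms was thus 57.4 to 69.3% in every pair and direction compared here, while the shares over all peaks ran from 24.4 to 68.6%. Other pairs of lists were not compared. Windows of 1 Mb held a median of 31.5 to 47 peaks on the short arms and 4 to 14 over all windows. Broader and denser peaks overlap more often by position alone, and how far this sets the shares was not tested. Among peaks with a fold of 4 or more, the share of short arm peaks met again was 38.0% of EV by K-KD (25.9% of all such EV peaks). Of K non-rep KO by K rep KO it was 48.1% (42.7% of all such). WT short arm peaks were below the share of all such WT peaks: 36.0% by EV (61.2%), 44.1% by K rep KO (58.9%) and 38.8% by K non-rep KO (55.7%).

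The zones differed in this too, and the direction mattered. WT peaks of the arm zone were met by a K rep KO peak for 82.5% (66 of 80, Wilson interval 72.7 to 89.3) and those of the centromere zone for 61.5% (651 of 1059, 58.5 to 64.4). Over all WT peaks the share was 63.2%. Read the other way, WT met 38.8% of K rep KO peaks in the arm zone and 67.2% in the centromere zone (33.3% of all). The arm zone interval here, 31.2 to 47.1, included the share over all peaks. For EV peaks met by WT the arm zone and centromere zone shares were 30.6% and 66.8% (24.4% of all). For EV peaks met by K-KD they were 45.9% and 64.3% (35.2% of all). In these 3 cases the arm zone was nearer the share over all peaks than the centromere zone was. Merged over the 5 lists, the short arms held 1934 distinct regions, and 414 (21.4%) had a peak in all 5 lists, against 7.97% over the genome. The limit set by peak width and density holds for these shares too. The share in all 5 lists was 14.4% in the arm zone (40 of 277) and 22.6% in the centromere zone (374 of 1657). Regions found in WT alone were 190 (9.82%) on the short arms, against 3.24% of all regions, and those in EV alone were 173 (8.95%), against 23.7%. K rep KO alone had 145 (7.50%, against 10.4%), K-KD 134 (6.93%, against 9.94%) and K non-rep KO 120 (6.20%, against 9.19%). The centromere zone held 185 of the regions in WT alone (11.2% of the zone) and 114 of those in EV alone (6.88%). In the arm zone these were 5 (1.81%) and 59 (21.3%), near the shares over all regions.

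**Figure D4:**
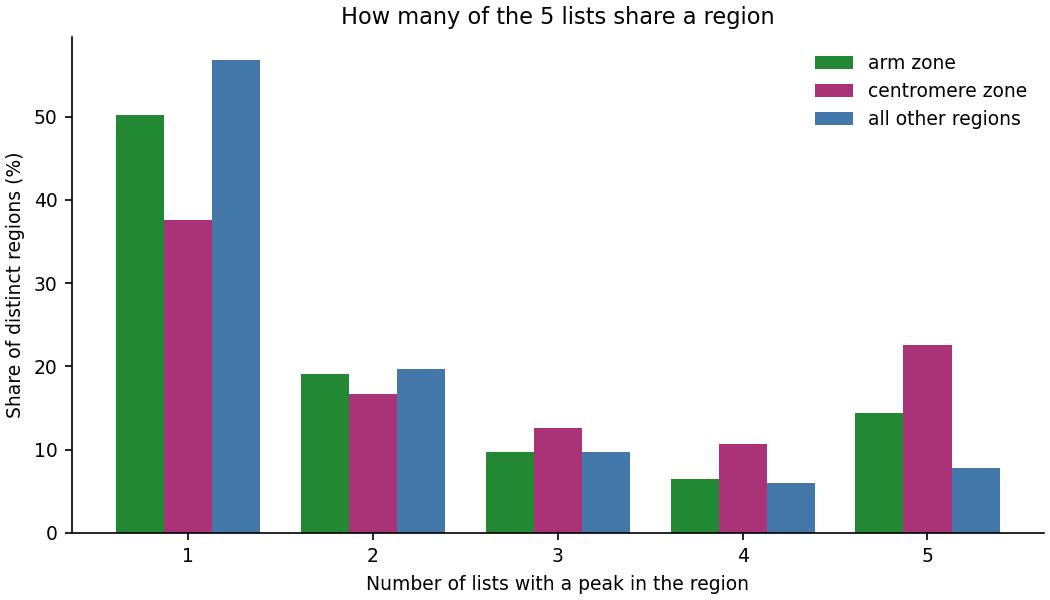
Share of distinct regions (%) by the number of lists, of 5, that have a peak in the region, for the arm zone, the centromere zone and the rest of the genome. The bar at 5 lists is 22.6% in the centromere zone, 14.4% in the arm zone and 7.79% elsewhere.

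By −log10 q, the strongest short arm peaks lay among the ribosomal RNA units, in the spacer just after a 45S end. GRCh38 places 3 annotated units on chromosome 21: RNA45SN2 at 8205988 to 8219302, RNA45SN3 at 8389035 to 8402343 and RNA45SN1 at 8433222 to 8446572. The block of 8201988 to 8474572 held 44 peaks for EV, 51 for K-KD, 37 for WT, 42 for K non-rep KO and 44 for K rep KO, covering 95.3, 89.1, 74.2, 88.8 and 95.9 kb. The highest −log10 q of all short arm peaks lay there in each list, at 326, 211, 243, 332 and 242. The units are near-identical copies of a repeat that is present many times in the genome, so reads cannot be assigned to one copy. The caller's background over the block was 33.5 to 47.4 times the genome-wide background at the median peak.

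Peaks covered the intergenic spacer and mostly spared the 45S precursor. Averaged over the 3 units, peaks covered 85.4% of the 28 kb after the 45S end for EV, 79.7% for K-KD, 75.05% for WT, 83.4% for K non-rep KO and 85.7% for K rep KO. They covered 29.7, 28.4, 8.99, 22.8 and 27.8% of the 45S precursor itself. WT was lowest on both measures, and the gap was wider over the precursor. The 18S gene, which encodes the RNA of the small ribosomal subunit, had a peak coverage of 96.4% for EV, 95.8% for K-KD, 44.1% for WT, 93.9% for K non-rep KO and 95.7% for K rep KO. WT coverage of 18S ran from 29.9 to 65.6% over the units and that of the other lists from 87.5 to 99.4%. The whole WT list also covered the least, 31.2 Mb, against 38.7 Mb (K-KD) to 64.0 Mb (EV). How far that sets the lower WT coverage of 18S was not tested. The units share reads and are not replicates.

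The 28S gene, which encodes the RNA of the large subunit, had a peak coverage of 38.3% for EV, 32.3% for K-KD, 7.41% for WT, 25.3% for K non-rep KO and 33.9% for K rep KO. The short 5.8S gene, which encodes another RNA of the large subunit, met a peak in all 3 units in K-KD and in 0 units in WT and K non-rep KO. It met a peak in RNA45SN2 and RNA45SN3 in EV, and in RNA45SN2 and RNA45SN1 in K rep KO. The 3′ external spacer had no peak in any list, and the 5′ external spacer, between the 45S start and 18S, was covered for at most 0.522% of its length.

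Around the 45S start, where transcription of the unit begins, every list had a stretch without a peak in every unit. It was 4330 to 5337 bp long over all units and lists. In EV at RNA45SN2 it began 805 bp before the start and ended 3624 bp after it, where 18S begins at 3643 bp. Peaks resumed 214 to 432 bp after the 45S end in every unit and list. At RNA45SN2 this first spacer peak had a fold of 6.85 for EV, 6.62 for K-KD, 5.95 for WT, 11.7 for K non-rep KO and 6.57 for K rep KO. The corresponding peak at RNA45SN3 had 13.2, 8.74, 9.74, 12.1 and 9.58, and that at RNA45SN1 had 11.03, 8.35, 12.1, 11.6 and 8.60. No list was highest at all 3 units.

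**Figure D5:**
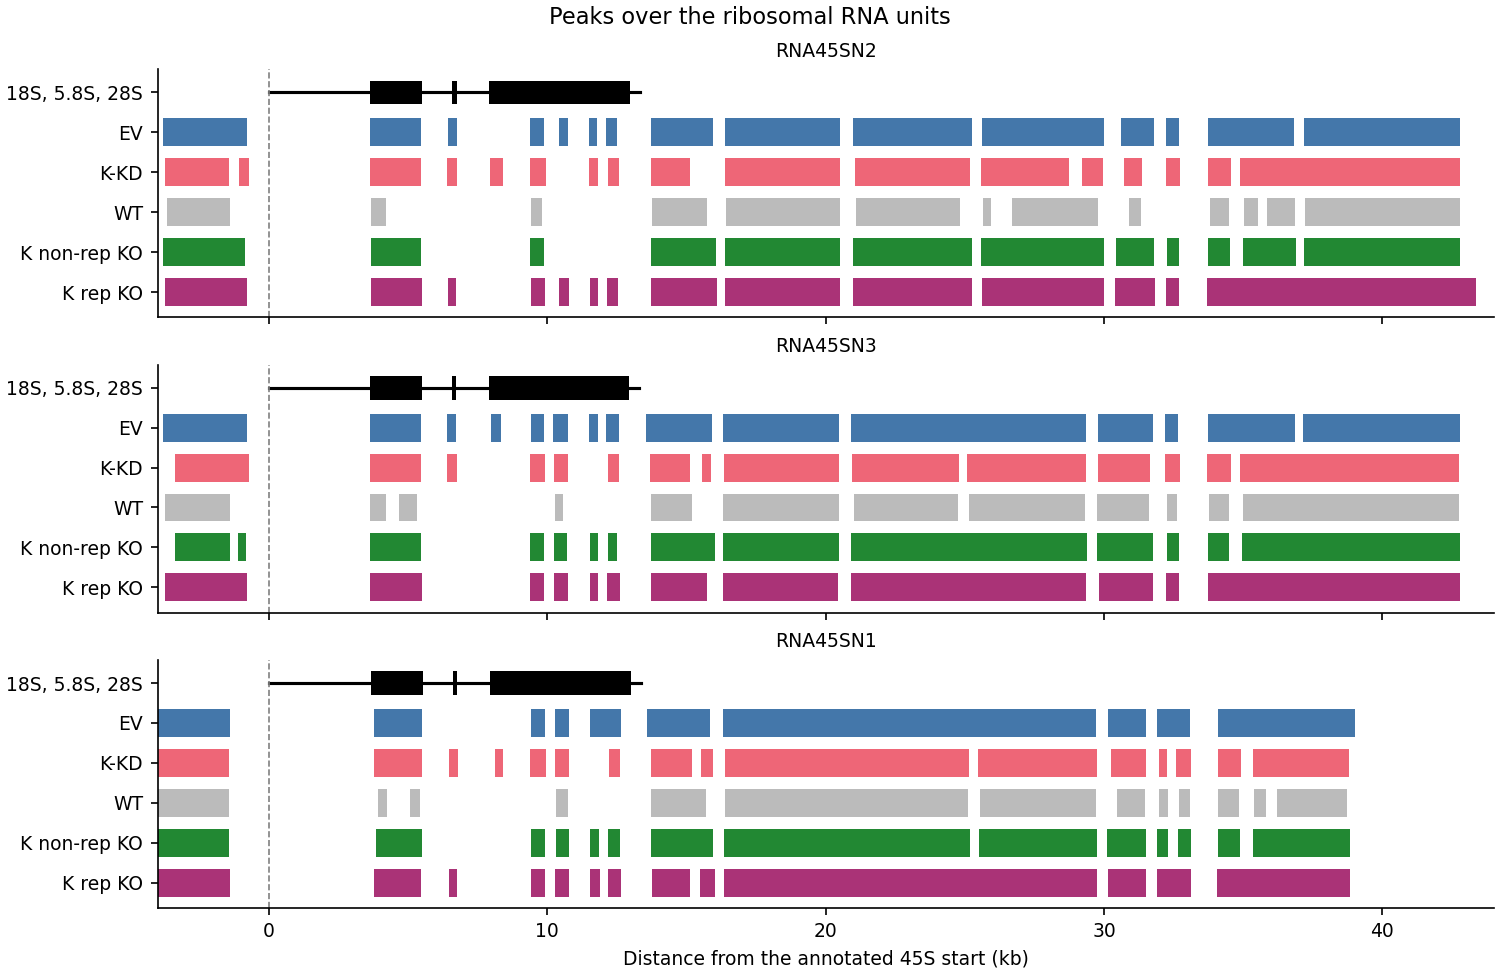
Peaks of the 5 lists over each ribosomal RNA unit by distance from the annotated 45S start (kb, dashed line); coloured bars are peaks, the black line is the 45S precursor, and black boxes are 18S, 5.8S and 28S. All lists leave a gap of 4330 to 5337 bp across the start and are dense after the 45S end, and WT bars over 18S are shorter than those of the other lists.

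Some microRNA genes lie within that gap. All 9 microRNA genes of the intervals had no peak in any list. They are only 49 to 180 bp long, and the share over all microRNA genes is not given here. Among them are MIR6724-4, whose hairpin begins at -692 bp from the start of RNA45SN1, and MIR10396B, which begins 3102 bp after it. Their mature sequences are shown as landmarks of the peak-free stretch (RefSeq, GRCh38.p14, plus strand), with the seed, bases 2 to 8, in capitals.
hsa-miR-6724-5p: cUGGGCCCgcggcgggcgugggg
hsa-miR-10396b-5p: cGGCGGGGcucggagccggg
The seeds of these microRNAs differ.

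Outside the ribosomal block, a stretch next to LINC01667, a long non-coding RNA gene at 9781848 to 9821061 of chromosome 21, had peaks with similar ends in every list. The widest short arm peak of every list lay just beyond it: 13757 bp for EV (9825132 to 9838888), 12832 bp for K-KD, 11520 bp for WT, 13705 bp for K non-rep KO and 13824 bp for K rep KO. Its fold was 4.80, 4.65, 8.83, 7.07 and 10.7. A separate peak covered the LINC01667 promoter shown above in all 5 lists, 4494 to 4567 bp wide, with a fold of 5.26 for EV, 3.37 for K-KD, 3.28 for WT, 4.99 for K non-rep KO and 5.66 for K rep KO. Its left end lay between 9820107 and 9820176 and its right end between 9824669 and 9824708 over the lists.

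Of the 48 short arm promoters, 7 had a peak for EV (14.6%, Wilson interval 7.25 to 27.2, with 4.63% of all promoters), 4 for K-KD (8.33%, with 2.81%), 1 for WT (2.08%, with 0.661%), 3 for K non-rep KO (6.25%, with 2.16%) and 4 for K rep KO (8.33%, with 2.77%). The numbers are small, and the intervals are too narrow because several promoters belong to the same gene or overlap each other. In EV, K-KD and K rep KO the interval, 3.29 to 19.6% for the latter 2, lay wholly above the share of all promoters, and in WT (0.369 to 10.9%) it did not. In K non-rep KO (2.15 to 16.8%) it reached down to that share. The LOC105379418 promoter had a fold of 3.91 for EV, 5.998 for K-KD, 2.62 for K non-rep KO and 5.39 for K rep KO and no peak for WT. A K-KD peak covered the LOC105372733 promoter (fold 5.56). The EV peak counted there (4.76) ended at 10119442, just inside the promoter's edge at 10119441. The 8 promoters with a peak in any list held a median of 14.5 CG and the 40 without held 14.

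Among the 10 regions with the highest lowest-list fold, 6 lay in the arm zone, and 4 of those were in or beside the ribosomal block. Leading them were the first spacer peaks after RNA45SN3 (fold 8.74 to 13.2 over the lists) and RNA45SN1 (8.35 to 12.1). In the centromere zone the leader was chromosome 22 from 13447103 to 13452148, at 6.68 for EV, 9.17 for K-KD, 8.31 for WT, 12.5 for K non-rep KO and 11.1 for K rep KO. Another was inside the long non-coding RNA gene LOC102724701 (chromosome 21, 6565409 to 6566291), at 10.8, 6.28, 6.58, 9.62 and 9.72. The single highest-fold peak of each list was elsewhere and differed between lists, at 16.4 for EV and 14.5 for K rep KO on chromosome 22, 17.5 for K-KD and 13.7 for K non-rep KO on chromosome 21, and 15.6 for WT on chromosome 14. All 5 lay in the centromere zone.

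Of the 170 genes, 66 (38.8%) overlapped a peak in at least 1 list and 18 (10.6%) in all 5. Over all 58877 annotated genes these shares were 42.1% and 11.2%, so the short arm genes were near the background, with a shorter median length (2638 against 5596 bp). LOC102724701, which spans 441766 bp, had 16 peaks for EV, 6 for K-KD, 4 for WT, 4 for K non-rep KO and 5 for K rep KO. CDC27P10, a transcribed pseudogene of the cell-cycle gene CDC27, lies between ribosomal units and had 4, 5, 5, 5 and 4. The remaining genes with most peaks were the ribosomal genes, LINC01667 and CBSL.

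GRCh38 places copies of several chromosome 21 long arm genes on the short arm, and these pairs of near-identical sequence were set side by side. Whether the short arm copies are present in these cells was not checked. CBSL, the copy of the cystathionine beta-synthase gene CBS, had 5 peaks for EV, 3 for K-KD, 1 for WT, 2 for K non-rep KO and 1 for K rep KO. The long arm CBS had 5, 4, 0, 1 and 3. U2AF1L5, a copy of the splicing factor gene U2AF1, had 0 in every list, and U2AF1 had 3, 1, 0, 0 and 1. CRYAA2, a copy of the lens crystallin gene CRYAA, had 4, 1, 1, 0 and 1, and CRYAA, whose annotation is far shorter, had 2 in EV and 0 elsewhere. KCNE1B, a copy of the potassium channel subunit gene KCNE1, and FAM243B had 0 in all lists, and SMIM11B had 1 in K non-rep KO, 2 in K rep KO and 0 elsewhere. Over the 6 pairs the short arm copies had 9, 4, 2, 3 and 4 peaks in the same order of lists and the long arm genes 11, 6, 0, 2 and 6. Reads from such copies cannot be told apart where the sequences are the same, so these numbers are uncertain.

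TPTE, a testis-expressed phosphatase gene, had 0 peaks in its body in all 5 lists, as at its promoter. BAGE2, of a family of cancer-testis antigens, had 2 for EV, 1 for K-KD, 0 for WT, 1 for K non-rep KO and 0 for K rep KO.

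The gap at the limits of the intervals differed between chromosomes. On chromosome 15 the last peak inside lay 213 to 220 kb before the limit, and the first outside 99.04 to 257 kb after it. On chromosome 13 these distances were 55.9 to 94.8 kb and 112 to 113 kb. They were 33.4 to 51.0 kb and 42.5 to 133 kb on chromosome 14, 90.6 to 99.3 kb and 37.3 to 208 kb on chromosome 21, and 256 kb and 17.1 to 222 kb on chromosome 22. The EV peak just inside the chromosome 21 limit had a fold of 3.18 and the one just outside 23.4.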

How the data were processed

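MeDIP-seq was made for 5 conditions of HEK293T cells. The tools were Bowtie2, MACS2 and deepTools and the build GRCh38, per the submitters' processing notes; their versions, settings and any pooling: not given in the sources used here. For every condition the authors deposited 1 narrowPeak list. The deposited fold enrichment is a ratio of summit pileup to the caller's local background, and the deposited −log10 p and −log10 q belong to the same summit. The deposited score is that −log10 q multiplied by 10 and rounded down in at least 99.9956% of a list's peaks. The lowest deposited −log10 q was 1.30 to 1.31. K-KD was read as the sample labelled KD, and 1 further list, whose name matched no sample label, was not used. Peak names inside both knockout lists carry other prefixes than the lists, so their assignment rests on the lists' names.

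Analysis was limited to chromosomes 1 to 22 and X, so 3.56 to 5.83% of a list was left out; coordinates are 1-based. Pileup and background were solved from fold, as (pileup + 1)/(background + 1), and from −log10 p as an upper Poisson tail (tolerance 0.001), which was tested on simulated data. Depth is the commonest background divided by the shortest peak. Window ratios had 0.5 added to both counts. Intervals are 95%, exact Clopper-Pearson for ratios and Wilson for shares. Python 3.11.15, numpy 2.4.6, pandas 2.3.3 and scipy 1.17.1 were used. The pairing of perturbed and unperturbed lists follows the order of the series' text.

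The members, zones and gene lists were chosen with earlier results of these data known. Named were ribosomal RNA genes, chromosome 21 copies, multicopy families (of which TPTE and BAGE2 lie in the intervals), the 10 genes with most peaks, all 1 Mb windows, the 10 regions in all lists with the highest lowest-list fold, and the widest and highest-fold peaks. Promoters, microRNA genes, the split of the arm zone and the stretch around the 45S start were added after the values were seen. Alternatives were stricter peaks, lists of equal length, covered length, arm zone alone, joined peaks, larger overlaps and fuller windows. Sequences of the peaks were not analysed here.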

Additional observations from a re-analysis of the deposited data

Results flagged for a closer look

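The short arm share of a list differed between the contrasts. Relative to all peaks, short arm peaks were 1.49 times as many in K-KD as in EV, and 0.496 times as many in K rep KO and 0.508 times as many in K non-rep KO as in WT. The knockdown contrast and both knockout contrasts thus lie on opposite sides of 1, which is why they are listed here. There is 1 list per condition, and the difference was not tested. In the same contrasts the plain numbers of short arm peaks changed by 0.913, 0.953 and 0.883 times, all under 1, and the list ratios were 0.614, 1.92 and 1.74.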

How the results depend on the processing

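Comparisons are in this order: the first is K-KD against EV, the second K rep KO against WT, the third the same for K non-rep KO, the fourth that between the knockouts, and the last EV against WT. Of the relative ratios, 22 alternatives stayed within the interval, 18 moved out of it and 2 reversed; the cause was not tested. With −log10 q of 5 or more they were 1.83, 0.676, 0.596 and 1.13 for the first 4; with fold of 4 or more, 0.598, 0.562, 1.06 and 0.383 for the last 4. With lists of the same length they were 1.68 for the first, 0.450 for the third and 0.386 for the last. By covered length, 0.690, 0.670 and 0.493 were found for the second, the third and the last. The fourth, 0.975 as reported with an interval that included 1, rose above 1 at the q and fold settings and by covered length (1.03). These changes are not counted as reversed. The arm zone alone gave 1.14, 0.904, 0.906 and, for EV against WT, 0.801. With EV as control, added after seeing the data, the second turned to 1.41 and the third to 1.44. Including unplaced peaks or leaving out 8 to 9 Mb of chromosome 21, both added likewise, moved no ratio out of its interval.

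Shared peaks moved in 19 alternatives and stayed in 3. With −log10 q of 5 or more they were 52.5% for the first, 51.6, 72.3 and 56.0% for the last 3. With fold of 4 or more they were 38.0, 44.1, 38.8, 48.1 and 36.0%, against 25.9, 58.9, 55.7, 42.7 and 61.2% of all such peaks. With equal lengths they were 75.8, 44.2, 35.8, 61.3 and 32.4%. With overlap of at least 50% of both peaks they were 42.8, 41.3, 39.2, 44.9 and 41.6%. A stricter overlap lowers these by construction, and the cause of the other shifts was not tested. Apart from the fold setting, the share over all peaks is not given at these settings, so these values cannot be set against it.

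Windows called moved in 9 alternatives and stayed in 13. With −log10 q of 5 or more they were 4, 2, 4 and 1 for the first 4. With fold of 4 or more they were 4 and 4 for the knockouts against WT, with equal lengths 4 for K rep KO against WT, and with EV as control 0 and 0. The share over all windows is not given at these settings.

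No paired analysis was possible because each condition has 1 list and no replicates. The lists give peaks passing a threshold rather than methylation levels, so a stretch without a peak is not shown to be unmethylated. Near-identical copies, the altered karyotype and background that is high on these arms limit what peak numbers show there.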
